A study of Mus musculus with 53 samples.

Results

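The tumours described here carry a vector with an sgRNA against Lkb1, the gene whose official mouse symbol is Stk11. They were chosen as every entry of the deposited size table labelled Lkb1 in a mouse given the vector pool and followed for 15 weeks. The rule found 26658 Lkb1 tumours of at least 500 cells among the 335123 such tumours of these mice. The whole table holds 409584 tumours, with no limit of size set. Each mouse of the rule also held tumours with inert sgRNAs, 91281 in all, and these served as its own control. A tumour is 1 barcode in 1 mouse, and its size is the number of cells given by the authors.

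LKB1 is a serine/threonine kinase that activates AMPK and its relatives, and so couples energy state to cell growth and polarity. It is a well-known tumour suppressor of lung adenocarcinoma. p53, the tumour suppressor also deleted in 1 of the genotypes, is a transcription factor that halts or kills cells under stress.

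Lentiviral vectors were given through the trachea, barcodes were amplified from DNA of the whole lung, and 1 library was made per mouse. All 3 genotypes, named only by letters in the labels, received the same pool against 11 tumour suppressor genes. In the common reading of these letters, all 3 genotypes carry a fluorescent reporter (T) and a transgene for Cas9 (C), beside the allele that K stands for. KTC mice (n = 10) have no further allele, KPTC mice (n = 12) also lose p53 to Cre, and KLTC mice (n = 13) also lose Lkb1. In KLTC mice the sgRNA against Lkb1 therefore has no intact gene left to remove, and its tumours are a further control. Whether an individual tumour in KTC or KPTC had lost Lkb1 was not measured, so each value is that of all tumours with the vector, edited or not. The labels give neither the age and sex of the mice nor the meaning of the letters that open the mouse names: IW in 8 KTC, 7 KPTC and 7 KLTC mice, MW in 2 KTC mice, ZR in 6 KLTC mice, and none in 5 KPTC mice.

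KTC mice held 11372 Lkb1 and 39940 inert tumours, KPTC mice 11385 and 39164, and KLTC mice 3901 and 12177. Within a mouse, the smallest sizes of 1 target and 1 barcode G and C count rose in whole multiples of 1 step. This step was taken as the worth of 1 sequencing read, which gave a depth in all 35 mice. Inert tumours were left out of its estimate, but it was applied to them as well. A read stood for 2.31 to 486 cells, with a median of 80.7. The smallest listed tumour of a mouse rested on 2 to 217 reads, and a tumour of 10000 cells on 20.6 to 4326 reads. Small tumours were therefore counted coarsely in the shallow mice. Only tumours of at least 500 cells were used, so percentiles and means apply to tumours above that size.

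A vector barcode is 21 bases long, with fixed bases between the random ones. The fixed pairs were found in 88.7% of Lkb1 entries and are in capitals below. The first 3 barcodes mark the largest Lkb1 tumour of KTC, KPTC and KLTC, in that order, and the last is the Lkb1 barcode listed in the most mice.
KTC, largest: AActcccTTcgcgtAAtgagt
KPTC, largest: AAcccatTTgtgttAAatacc
KLTC, largest: AAgctgcTTgctggAAtgacc
Most shared: AAttaaaTTtgctgAAtctta
The KTC tumour had 4.41e+06 cells, the KPTC tumour 1.09e+07 and the KLTC tumour 7.63e+06. All 3 barcodes were also listed in other mice at far smaller sizes, the largest of them 20854 cells for the KTC barcode, 8461 for the KPTC barcode and 18368 for the KLTC barcode. The most shared barcode was listed in 30 mice (10 KTC, 12 KPTC and 8 KLTC) at 562 to 63821 cells, with a median of 9573.

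Sharing of this kind was most frequent among tumours of at least 100000 cells, with no rise below that size. Of the 67 Lkb1 tumours of at least 1000000 cells, 65 had a barcode listed in another pool mouse, in a median of 8 other mice, and in none of those as large as 100000 cells. Of the 703 from 100000 to 1000000 cells, 68.4% had such a barcode, against 28.7% of the 1851 from 10000 to 100000 cells. It was 32.7% of the 12895 from 1000 to 10000 cells and 31.02% of the 11142 under 1000 cells. These classes pool the genotypes, whose mean share per mouse was 30.5% in KTC, 33.8% in KPTC and 61.2% in KLTC. Inert tumours were not split in this way. Tumours listed at 10 or more times their size in another mouse made up a median of 5.56% of Lkb1 and 6.30% of inert tumours in KTC mice, 7.47% and 7.65% in KPTC mice, and 36.7% and 28.7% in KLTC mice. The part of these entries in the results was not tested beyond leaving them out, and values without them are given beside the results whose call they change.

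Loss of Lkb1 in KTC mice was marked by a minority of very large tumours, while the median tumour above 500 cells was of inert size. The median Lkb1 tumour of a KTC mouse had 706 to 1429 cells (median over mice 1062) and the median inert tumour 719 to 1432 cells (1009). The Lkb1 median was the higher of the pair in 4 of 10 mice, so the groups overlapped fully there. The 95th percentile of Lkb1 tumours ranged from 9525 to 101392 cells (median over mice 40750), and that of inert tumours from 3836 to 17167 cells (12147). In each of the 10 mice the Lkb1 value exceeded the inert value of that mouse, and only the lowest Lkb1 value lay within the inert range.

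As log2 ratios to the inert tumours of the same mouse, the difference in KTC grew from the middle of the size distribution to its top. It was 0.05 ± 0.09 (SD, n = 10) at the 50th percentile, with an adjusted p of 0.258 by exact permutation of the signs of the mice (two-sided, Benjamini-Hochberg over the 11 targets). At the 60th percentile it was 0.09 ± 0.09, with an adjusted p of 0.0573 by that exact test. It passed the threshold of 0.05 from the 70th percentile, at 0.21 ± 0.15, through 0.43 ± 0.22 at the 80th and 1.14 ± 0.37 at the 90th. At the 95th percentile it reached 1.86 ± 0.92, a 3.63-fold difference, with an adjusted p of 0.00716 by the exact permutation test at each of these 4 percentiles. The 99th percentile gave the largest difference of the percentiles computed, 2.70 ± 0.95 or 6.50-fold (adjusted p = 0.0107, exact permutation), and the highest rank among the 11 targets. Higher values were found in 10 of 10 mice at every percentile from the 70th. Of the 11 targets, 45.5% were called higher than inert at the 70th and at the 80th percentile and 54.5% at the 90th. The share was 27.3% at the 95th percentile and 18.2% at the 99th. Another target, Setd2, ranked above Lkb1 from the 70th to the 95th percentile, with a log2 ratio of 2.35 at the 95th. Percentiles move with the minimum size: from 1000 cells the 50th percentile was already called (0.23), and from 5000 cells the 99th was not (1.21, adjusted p = 0.0645, exact permutation).

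KPTC mice, which also lose p53, had a difference that passed from the 90th percentile of size. The 95th percentile of Lkb1 tumours ranged from 6881 to 36611 cells (median over mice 12442) and that of inert tumours from 4021 to 22861 cells (6886). Lkb1 was higher in 11 of 12 mice, but the ranges of the pair overlapped widely. The log2 ratio did not pass at the 50th to the 80th percentile, where it lay between 0.03 and 0.09. It was 0.33 ± 0.41 at the 90th percentile (SD, n = 12; adjusted p = 0.0101), 0.79 ± 0.61 at the 95th (adjusted p = 0.00358) and 1.77 ± 0.74 at the 99th (adjusted p = 0.00179), by the same two-sided exact permutation test. The last of these is a 3.42-fold difference and was positive in 12 of 12 mice. From 5000 cells it was no longer called (0.083, adjusted p = 0.941, exact permutation), and in IW mice alone none of the 3 was (0.31, 0.72 and 1.71). With these 7 mice the exact permutation test cannot give a p below 0.0156, which was the unadjusted value at the 99th percentile. Of the 11 targets, 72.7% were called higher at the 90th percentile, 54.5% at the 95th and 45.5% at the 99th, so that a call as such did not set Lkb1 apart in KPTC. By mean ratio Lkb1 ranked 3 of the 11 at each of these 3 percentiles.

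In KLTC mice, where the gene is already deleted, no percentile of Lkb1 tumours passed with all mice. The 95th percentile ranged from 6716 to 504064 cells for Lkb1 (median over mice 164354) and from 8260 to 447024 cells for inert tumours (99086). Lkb1 was higher in 5 of 13 mice and the groups overlapped over nearly their whole range. The log2 ratio was -0.24 ± 0.62 at the 95th percentile (SD, n = 13; adjusted p = 0.487, exact sign-flip permutation) and -0.44 ± 0.94 at the 99th (adjusted p = 0.429). Without replicate 5, the 99th percentile of Lkb1 tumours was called lower than inert (-0.62, adjusted p = 0.0483, exact permutation). Of the 11 targets, 9.09% were called higher at the 95th percentile and 0% at the 99th.

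**Figure D1:**
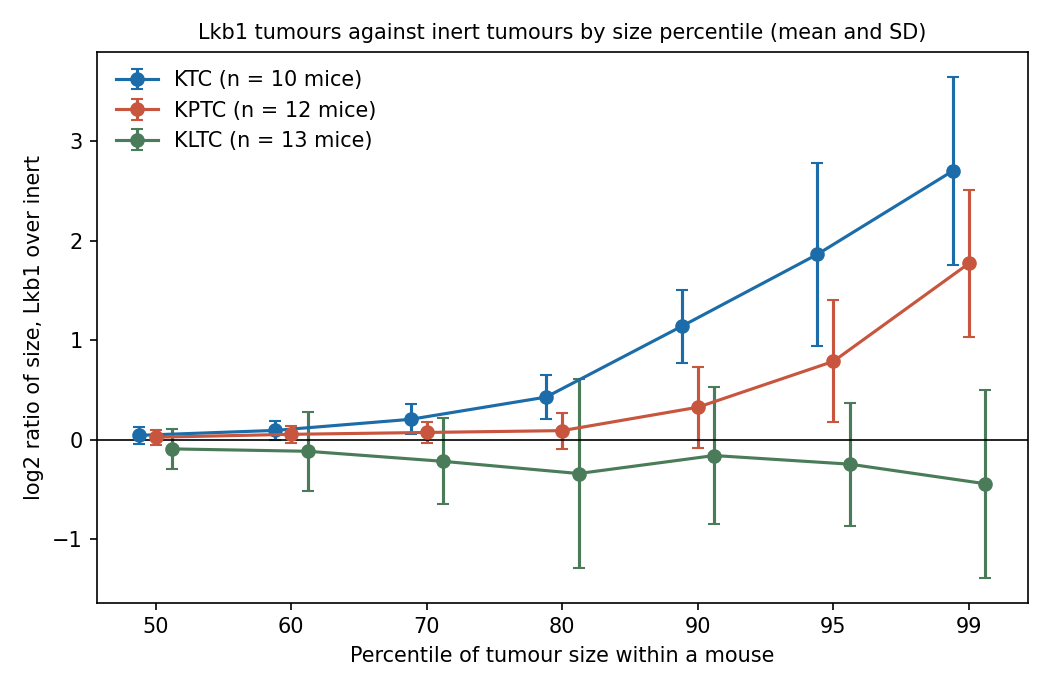
Log2 ratio of tumour size, Lkb1 over inert of the same mouse (vertical axis), at percentiles of tumour size from the 50th to the 99th (horizontal axis, not to scale), as the mean and SD over 10 KTC, 12 KPTC and 13 KLTC mice. The KTC line rises from 0.05 to 2.70 and the KPTC line from 0.03 to 1.77, while the KLTC line stays below 0, with SDs that reach past it.

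The difference between the genotypes was tested on the per-mouse ratios themselves. At the 95th percentile the KPTC ratio was lower than the KTC ratio by a log2 difference of -1.07 ± 0.34 (SE; adjusted p = 0.0266, two-sided permutation of mouse labels with 100000 resamples, adjusted over 11 targets), 2.10-fold on the linear scale. This call was lost without KTC replicate 1 (difference -0.84), without KPTC replicate 10 (-0.99), in IW mice alone (-1.30) and from 5000 cells (-0.81). The KPTC ratio was also lower at the 80th (-0.34 ± 0.09, adjusted p = 0.00550) and the 90th percentile (-0.81 ± 0.17, adjusted p = 0.00264), but the difference at the 99th, -0.93 ± 0.37, did not pass (adjusted p = 0.102, permutation). The calls at the 80th and 90th were lost in IW mice alone (-0.33 and -0.85), with at least 10 reads (-0.14 and -0.69) and from 5000 cells (-0.69 and -0.75). The KLTC ratio was lower than that of KTC by -2.11 ± 0.34 at the 95th percentile and by -3.14 ± 0.40 at the 99th (adjusted p = 5.5e-05 and 0.00011, permutation). It was lower than that of KPTC by -1.03 ± 0.25 and -2.21 ± 0.34 (adjusted p = 0.00198 and 0.00011, permutation). From 5000 cells neither of the last pair was called (-1.28 and -0.65), and in IW mice alone the 95th was not (-1.003). At the 95th percentile, 18.2% of the 11 targets were called lower in each of these 3 comparisons. At the 80th and 90th, 18.2% and 27.3% were called lower in KPTC against KTC. At the 99th, 18.2% were called lower in KLTC against KTC and 54.5% in KLTC against KPTC. The comparisons share mice and are not independent of each other.

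Tumours above fixed sizes, counted as a share of all listed tumours of the target, showed the same group of large tumours. These sizes do not move with the distribution, but the share does move with the minimum size listed. In KTC mice 0.719% to 5.09% of Lkb1 tumours (median over mice 2.78%) had at least 100000 cells, against 0.116% to 1.36% of inert tumours (0.570%). The Lkb1 share was the higher in 10 of 10 mice. The difference was 2.31 ± 1.10 percentage points (SD, n = 10; adjusted p = 0.0215, exact sign-flip permutation), and 18.2% of the 11 targets were called higher. Setd2 was among them, with a larger mean difference of 2.59 ± 1.77 points. In absolute numbers, the KTC mice held 394 Lkb1 tumours of this size against 307 inert ones, although inert tumours were far more numerous overall. Lkb1 tumours of this size outnumbered the inert ones in 9 of 10 KTC mice, in 2 of 12 KPTC mice and in 0 of 13 KLTC mice.

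In KPTC mice 0.272% to 3.39% of Lkb1 tumours (median over mice 1.56%) reached 100000 cells, against 0% to 1.202% of inert tumours (0.584%). The difference of 0.90 ± 0.66 percentage points was positive in 11 of 12 mice (adjusted p = 0.00358, exact permutation; 27.3% of the 11 targets called higher), but was not called in IW mice alone (0.96). It lay below that of KTC, with a difference of -1.41 ± 0.40 points (SE; adjusted p = 0.0135, permutation; 9.09% of targets called lower), which was lost with at least 10 reads (-0.98) and from 5000 cells (-6.55). In KLTC mice large tumours were common with either sgRNA, at 0% to 15.2% of Lkb1 tumours (median over mice 7.87%) and 0.491% to 14.8% of inert tumours (4.93%). The difference there, -0.86 ± 2.46 points, did not pass (adjusted p = 0.574, exact permutation), and Lkb1 was higher in 4 of 13 mice. The KLTC value lay below that of KTC by -3.17 ± 0.77 points (adjusted p = 0.0131, permutation), a call lost without tumours listed at 10 or more times their size in another mouse (-3.18, adjusted p = 0.121). Its gap to KPTC, -1.76 ± 0.71 points, did not pass ( adjusted p = 0.134, permutation).

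**Figure D2:**
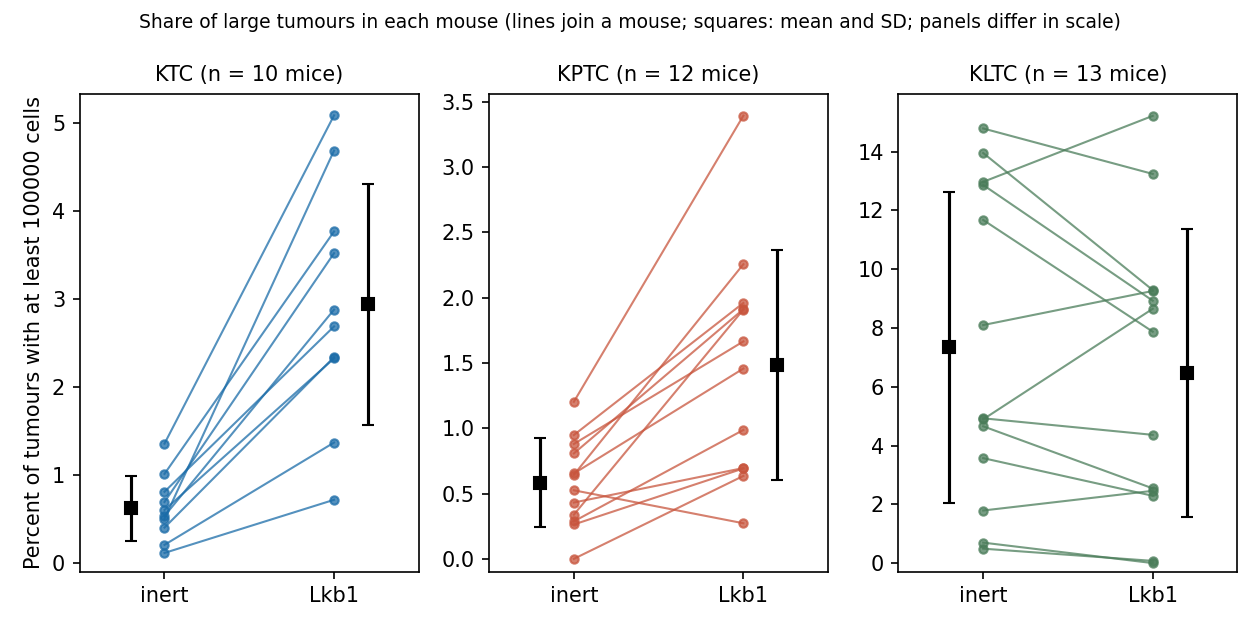
Percent of tumours with at least 100000 cells (vertical axis, a scale of its own in each panel) for inert and Lkb1 tumours in each mouse, with a line joining the values of 1 mouse and squares for the mean and SD of 10 KTC, 12 KPTC and 13 KLTC mice. All 10 KTC lines and 11 of 12 KPTC lines rise from inert to Lkb1, and 4 of 13 KLTC lines do.

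At the lower limit of 10000 cells, the Lkb1 share exceeded the inert share by 4.92 ± 1.74 percentage points in KTC (adjusted p = 0.00716, n = 10, exact permutation; 36.4% of targets called higher) and by 1.93 ± 1.68 points in KPTC (adjusted p = 0.00537, exact permutation; 63.6% called higher), the latter not called in IW mice alone (1.97). In KLTC it differed by -1.41 ± 3.60 points (adjusted p = 0.248, exact permutation). Tumours of at least 1000000 cells were few. KTC mice held 39 with Lkb1, in 6 of the 10 mice, and 12 inert ones. KPTC mice held 19 with Lkb1 in 4 mice and 37 inert ones in 10 mice, and KLTC mice 9 and 51. The share of this size did not pass against inert in any genotype, with adjusted p = 0.0688 in KTC, 0.979 in KPTC and 0.408 in KLTC by the exact permutation test, and 0% of the 11 targets were called higher in each. Without the largest tumour of each target, the KLTC share was called lower than inert (-0.34 points, adjusted p = 0.0215, exact permutation).

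The number of Lkb1 tumours was compared as a ratio to the inert tumours of the mouse, since the labels do not give the share of each vector in the pool. Lkb1 tumours were 26.8 to 34.6 per 100 inert tumours in KTC (29.6 ± 2.39, SD), 26.2 to 32.2 in KPTC (29.3 ± 1.98) and 28.4 to 38.5 in KLTC (32.4 ± 2.86). These ranges overlapped between all genotypes. On the log2 scale the ratio in KPTC differed from KTC by -0.01 ± 0.05 (SE; adjusted p = 0.932, permutation). It was higher in KLTC than in KPTC by 0.14 ± 0.04 (adjusted p = 0.0158, permutation; 27.3% of 11 targets called higher), and than in KTC by 0.13 ± 0.05, which did not pass (adjusted p = 0.133, permutation). The KLTC excess over KPTC did not outlast a higher size limit, being 0.11 from 1000 cells, 0.019 from 1500 and -0.33 from 5000, and it was 0.068 with at least 10 reads and 0.070 without tumours listed at 10 or more times their size elsewhere, none of them called.

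Split by size and summed over mice, the ratio was close to its overall value for small tumours, and higher for large ones in KTC and KPTC. Summed over KTC mice, there were 27.8 Lkb1 tumours per 100 inert from 500 to 1000 cells, 26.2 from 1000 to 10000, 39.4 from 10000 to 100000, 120 from 100000 to 1000000, and 325 above. The same classes held 28.8, 28.3, 34.0, 72.3 and 51.4 per 100 inert in KPTC mice. The last of these sums did not hold per mouse. Its median was 0 over the 10 KPTC mice with an inert tumour of that size. The Lkb1 share of that size was above the inert share in 4 of 12 KPTC mice, equal in 2 and lower in 6. In KLTC mice they held 32.6, 32.5, 28.8, 29.4 and 17.6, with no higher value at large sizes. The uppermost class rests on the 67 tumours counted above and has no test of its own.

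**Figure D3:**
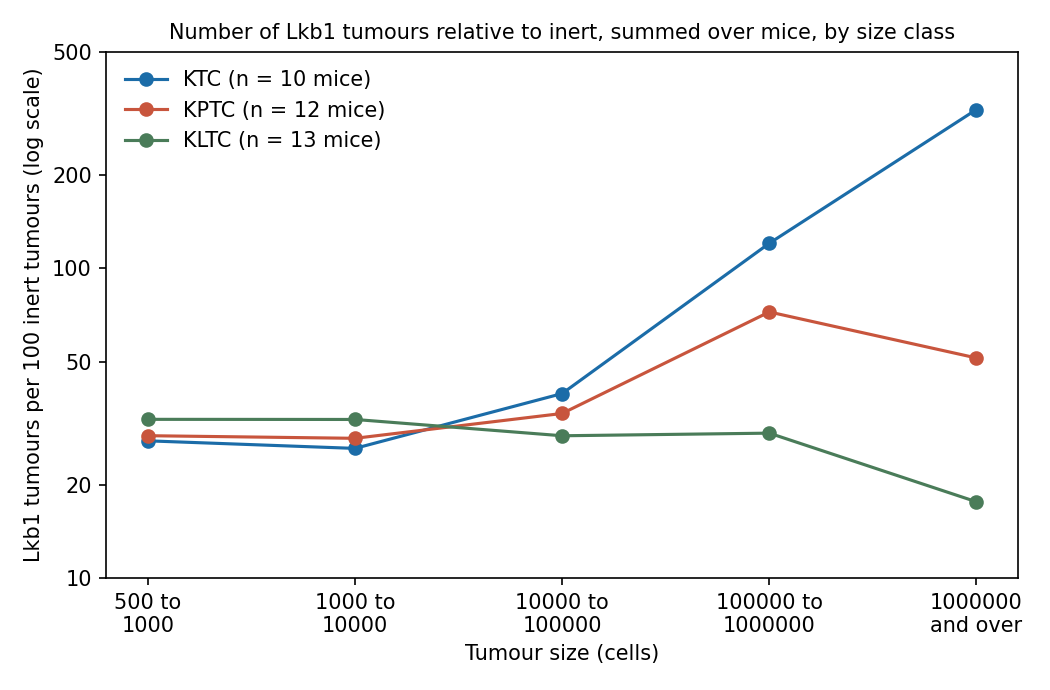
Lkb1 tumours per 100 inert tumours (vertical axis, log scale) in 5 classes of tumour size in cells (horizontal axis), summed over 10 KTC, 12 KPTC and 13 KLTC mice, with no error shown. The 3 lines start between 27.8 and 32.6 and part from 10000 cells upwards, to 325 in KTC, 51.4 in KPTC and 17.6 in KLTC.

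Per mouse, the log2 ratio of Lkb1 to inert tumours of at least 100000 cells (0.5 added to both numbers) was 0.51 ± 0.43 in KTC, -0.31 ± 1.10 in KPTC and -1.95 ± 0.77 in KLTC. KLTC fell below KTC by -2.46 ± 0.25 (SE), which is 5.52-fold, and below KPTC by -1.64 ± 0.38, which is 3.11-fold (adjusted p = 5.5e-05 and 0.000495, two-sided permutation; 27.3% of 11 targets called lower in each). KPTC lay below KTC by -0.83 ± 0.34, which did not pass (adjusted p = 0.123, permutation; 0% called lower). From 10000 cells the differences were -0.97 ± 0.17 for KLTC against KTC (adjusted p = 0.000385, permutation), -0.63 ± 0.19 for KLTC against KPTC (adjusted p = 0.00803) and -0.34 ± 0.21 for KPTC against KTC (adjusted p = 0.235). In the same order, 18.2%, 36.4% and 0% of the 11 targets were called lower. In IW mice alone KLTC against KPTC was called at neither size (-1.12 and -0.44), and KPTC against KTC was called from 100000 cells (-1.28), as it was without KPTC replicate 2 (-1.07) and without the largest tumours (-1.14).

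The large tumours gave Lkb1 a share of the tumour cells well above its share of the tumours in KTC. Lkb1 made up 8.20 ± 1.33% of the listed tumours of a KTC mouse (SD, n = 10) but 12.5% to 27.1% of the listed cells (median over mice 17.5%). Its cell share exceeded its tumour share in 10 of 10 mice, by 1.72 to 3.35 times. In KPTC, 8.33 ± 0.87% of tumours held 4.22% to 17.6% of cells (median 9.29%), with the cell share above the tumour share in 8 of 12 mice. In KLTC, 8.91 ± 1.68% of tumours held 3.73% to 12.4% of cells (median 5.21%), above the tumour share in 3 of 13 mice. These shares move with every other target in the pool as well as with Lkb1.

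**Figure D4:**
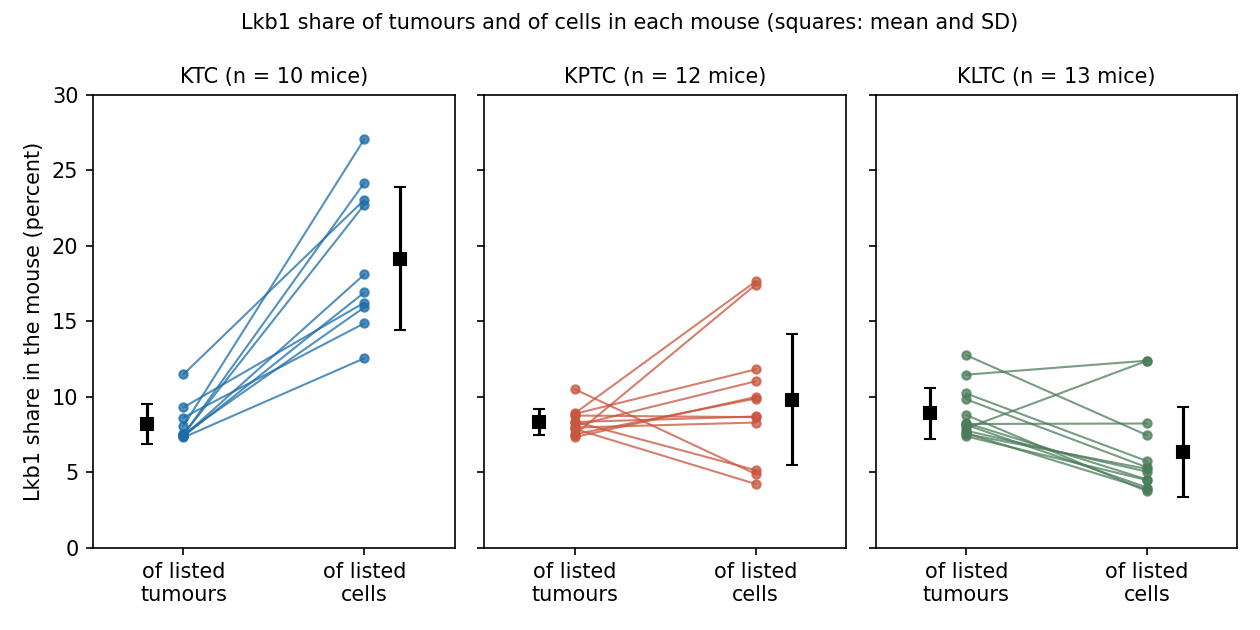
Lkb1 share, in percent (vertical axis), of the listed tumours and of the listed cells of each mouse, with squares for the mean and SD of 10 KTC, 12 KPTC and 13 KLTC mice. In KTC the cell share lies between 12.5% and 27.1% around a mean of 19.2%, above the tumour share in all 10 mice, while in KLTC it lies below the tumour share in 10 of 13.

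Arithmetic mean size, which is the cell share freed of tumour number, was higher than inert in KTC by a log2 ratio of 1.77 ± 0.59 (3.42-fold, 10 of 10 mice; adjusted p = 0.0107, exact sign-flip permutation; 18.2% of 11 targets called higher). Lkb1 ranked highest of the 11 targets on this measure and first in 6 of 10 mice. Setd2 was close behind at 1.59 ± 0.48, and was also higher than inert in 10 of 10 mice. In KPTC the Lkb1 ratio was 0.55 ± 0.88 (8 of 12 mice) and did not pass (adjusted p = 0.201, exact permutation; 0% called higher). In KLTC it was -0.39 ± 0.60 (4 of 13 mice), with p = 0.0420 unadjusted and 0.231 adjusted by the exact permutation test (9.09% called higher, 0% lower). KPTC lay below KTC by -1.22 ± 0.31 (SE; adjusted p = 0.0111, permutation; 9.09% of targets called lower) and KLTC below KTC by -2.16 ± 0.25 (adjusted p = 5.5e-05, permutation; 18.2% called lower). The KPTC difference was lost from 5000 cells (-1.15).

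A single tumour held much of this in some mice. The largest Lkb1 tumour made up 3.09% to 21.7% of all Lkb1 cells in a KTC mouse (median 9.48%), 5.21% to 30.5% in a KPTC mouse (14.8%) and 4.27% to 33.0% in a KLTC mouse (17.1%). The largest Lkb1 tumour exceeded the largest inert tumour in 8 of 10 KTC mice, although it was drawn from fewer tumours, in 3 of 12 KPTC mice and in 3 of 13 KLTC mice. The largest tumour of the whole mouse was an Lkb1 tumour in 4 of 10 KTC mice, 1 of 12 KPTC mice and 1 of 13 KLTC mice. Among all tumours of at least 100000 cells in a mouse, Lkb1 made up a mean of 26.7% in KTC (16.3% to 50%), 15.2% in KPTC (3.85% to 27.0%) and 6.42% in KLTC (0% to 12.5%).

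The log-normal mean, the mean expected if log sizes are normally distributed, sums these distributions in a single value. It fell short of the arithmetic mean for Lkb1 in KTC, averaging 4840 against 17902 cells over mice. In KTC mice it was 1989 to 8096 cells for Lkb1 (median over mice 5255) and 1179 to 3624 cells for inert tumours (2432), and Lkb1 was the higher in every mouse. The log2 ratio was 1.003 ± 0.24 (2.00-fold; adjusted p = 0.00716, exact permutation; 45.5% of targets called higher), and Lkb1 ranked 1st in 3 mice and 2nd in 7. In KPTC mice it was 1671 to 7095 cells for Lkb1 (2774) and 1360 to 5001 cells for inert tumours (1823), a log2 ratio of 0.40 ± 0.25 that was positive in 12 of 12 mice (adjusted p = 0.00134, exact permutation; 72.7% called higher). In KLTC mice Lkb1 had the lowest mean ratio of the 11 targets, -0.27 ± 0.65 (adjusted p = 0.306, exact permutation; 9.09% called higher, 0% lower), and it was above 0 in 3 of 13 mice. KPTC lay below KTC by -0.60 ± 0.10, KLTC below KTC by -1.27 ± 0.19 and KLTC below KPTC by -0.67 ± 0.19 (SE; adjusted p = 0.00066, 0.00011 and 0.0110, permutation; 27.3%, 18.2% and 18.2% of targets called lower). The KLTC value against KPTC did not pass in IW mice alone (-0.48) or without tumours listed at 10 or more times their size in another mouse (-0.53). The KPTC value against KTC did not pass from 5000 cells (-0.74) or in tumours of at least 10 reads (-0.57), a limit that removed a median of 48.4% of Lkb1 tumours in KPTC mice and 12.8% in KTC mice.

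The KTC ratio was positive in every mouse, whatever the letters of its name. The 95th percentile ratio was 2.02 ± 0.97 in the 8 IW mice and 1.23 ± 0.12 in the 2 MW mice. In KPTC it was 0.72 ± 0.81 in the 7 IW mice, which did not pass on their own (adjusted p = 0.0573, exact permutation), and 0.88 ± 0.17 in the 5 others. Across mice of a genotype, the log-normal mean ratio and the log10 number of listed tumours had r = 0.37 and rho = 0.45 in KTC (n = 10; permutation p = 0.298 and 0.191), r = -0.19 and rho = -0.27 in KPTC (n = 12; permutation p = 0.551 and 0.403), and r = 0.21 and rho = 0.40 in KLTC (n = 13; permutation p = 0.493 and 0.176). None passed after adjustment over the 3 genotypes (adjusted p = 0.551 for each r and 0.287 to 0.403 for rho, permutation). In KTC r became -0.14 without the 2 mice farthest from the median of that number. A relation across mice with cells per read was not tested.

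Loss of Lkb1 by sgRNA in KTC and its deletion by Cre in KLTC can be set beside each other in absolute size, although in different mice. The log-normal mean of Lkb1 tumours in KTC had a geometric mean of 4530 cells over mice. Inert tumours of KLTC, whose cells lack the gene, reached 10836 cells, with a range of 1824 to 70047 that took in every KTC value. The log2 difference, -1.26 ± 0.55 (SE), did not pass (adjusted p = 0.0651, permutation over mice, adjusted over 6 tests), and neither did that of the 95th percentile, -1.32 ± 0.67 (adjusted p = 0.0830). The share of at least 100000 cells was lower in KTC Lkb1 tumours by -4.40 ± 1.53 percentage points (adjusted p = 0.0307, permutation), a call that held in 17 of the 23 fits that left out 1 mouse and was lost without KTC replicate 10 or KLTC replicate 7, 10, 11, 12 or 13 (-4.15 to -3.78 points). It was also lost in IW mice alone (-0.76, adjusted p = 0.924, exact permutation), with at least 10 reads (-6.04) and from 5000 cells (-11.4). Without tumours listed at 10 or more times their size elsewhere, the log-normal mean and the 95th percentile were called lower in KTC (-2.32 and -1.82).
Lkb1 tumours of KPTC were smaller than inert KLTC tumours on all 3 measures with all mice and tumours, with a log-normal mean of 2829 cells and a log2 difference of -1.94 ± 0.55 (adjusted p = 0.00504, permutation). These differences moved with the letters of the mouse names. In IW mice alone the log-normal mean was 5136 cells for KTC Lkb1 and 5484 cells for KLTC inert tumours, and the log2 difference was -0.095 (adjusted p = 0.924, exact permutation). In the 6 ZR mice of KLTC, inert tumours had 23988 cells. With IW mice alone the KPTC differences did not pass either, at -0.77 for the log-normal mean (adjusted p = 0.725, exact permutation), -1.38 for the 95th percentile and -2.47 points for the share from 100000 cells. With at least 10 reads they did not pass at -1.45, -1.65 and -6.54 points, nor did the 95th percentile from 5000 cells (-0.71). The letters are a mouse name and what sets ZR mice apart was not tested.

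**Figure D5:**
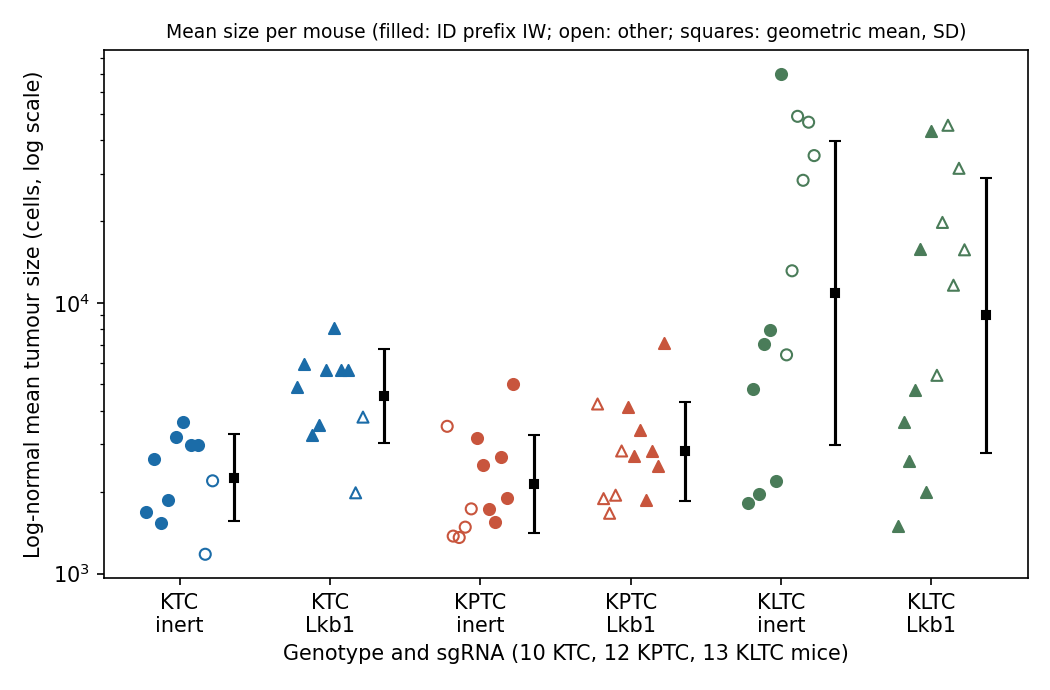
Log-normal mean tumour size in cells (vertical axis, log scale) of inert and Lkb1 tumours in each of 10 KTC, 12 KPTC and 13 KLTC mice, with filled symbols for mice named IW, open symbols for the others, and squares for the geometric mean and SD. Lkb1 lies above inert in KTC (4530 against 2260 cells) and KPTC (2829 against 2142), while KLTC spreads from 1504 to 70047 cells with its ZR mice mostly at the upper end.

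By order of level, inert tumours of KPTC (2142 cells) and of KTC (2260) were followed by Lkb1 tumours of KPTC (2829), KTC (4530) and KLTC (9007) and by inert tumours of KLTC (10836). Only the step from Lkb1 in KPTC to Lkb1 in KTC exceeded the SD of both neighbours, which was 0.61 and 0.58 on the log2 scale, and the ranges overlapped there too. In KLTC the SD was 1.69 for Lkb1 and 1.86 for inert tumours. The comparison within a mouse is the one with the smaller error, since its SD was 0.24 in KTC against 0.58 for the level of Lkb1 itself.

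The other targets in signalling and metabolism were APC, which holds back Wnt signalling, Smad4, the shared mediator of TGF-beta signalling, and Keap1, which marks the antioxidant regulator NRF2 for degradation. Of these 3, 1 had a higher log-normal mean than inert in KTC, 2 in KPTC and 1 in KLTC, and none a lower one, beside 45.5%, 72.7% and 9.09% of all 11 targets called higher. APC was called in all 3 genotypes, with log2 ratios of 0.19 ± 0.14, 0.22 ± 0.11 and 0.67 ± 0.46 in KTC, KPTC and KLTC (adjusted p = 0.0161, 0.00134 and 0.00269, exact sign-flip permutation). The ratios of Lkb1 in the same order were 1.003, 0.40 and -0.27. Smad4 was called in KPTC (0.14 ± 0.11, adjusted p = 0.00537, exact permutation), with -0.02 in KTC and 0.29 in KLTC, and Keap1 was called in no genotype (0.07, 0.05 and 0.25).

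The target nearest to Lkb1 in its pattern over the 35 mice was Setd2, a histone methyltransferase that marks transcribed genes. The root mean square difference of its per-mouse log2 log-normal mean size from that of Lkb1 was 0.61. ATM, the kinase that signals DNA breaks, followed at 0.69 and Rbm10, a splicing regulator, at 0.79, while inert tumours themselves lay at 0.74. Setd2 was nearer to Lkb1 than inert tumours were only in KTC (0.45 against 1.03), and not in KPTC (0.50 against 0.47) or KLTC (0.79 against 0.68). Setd2 exceeded Lkb1 by a mean of 0.21 in KTC, 0.29 in KPTC and 0.39 in KLTC. ATM lay below Lkb1 by a mean difference of -0.995 in KTC and -0.26 in KPTC and above it by 0.23 in KLTC. Its root mean square difference was 1.02 in KTC, 0.37 in KPTC and 0.60 in KLTC. ATM was the nearest target only in KLTC, since in KPTC others were nearer, among them APC (0.32).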

How the data were processed

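The authors deposited 1 table with the genotype, weeks, mouse, target, barcode and absolute number of cells of each tumour. Per the labels, barcodes were amplified from whole-lung DNA and sequenced, with 1 library per mouse. The labels do not say how reads were turned into cells. Cells per read were recovered from the steps between the smallest sizes of a mouse, target and barcode G and C count, without inert tumours. Of the differences used, 100% were whole multiples within a tolerance of 0.02 reads. A step was accepted only if nearly all of them were, so this share is no independent check.

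Tumours of at least 500 cells and targets with at least 10 tumours in a mouse were used. The log-normal mean was exp(m + 0.5 v), with m and v the mean and variance of log size. The mouse was the replicate. What the letter K of the genotypes stands for is not reported here. Ratios to inert were tested within a genotype by two-sided exact sign-flip permutation, and between genotypes by two-sided permutation of mouse labels, with 100000 resamples, or exactly where there were fewer relabellings. Both were adjusted by Benjamini-Hochberg over 11 targets for each measure. The smallest p that the within-genotype test can give is 0.00195 in KTC, 0.000488 in KPTC and 0.000244 in KLTC, and 1e-05 for the sampled test. The procedure was run on simulated data, in which all sizes of a target were inert sizes of the mouse multiplied by the same factor. This case is unlike the Lkb1 result in KTC, which grew towards the top of the size distribution. Python 3.11.15, numpy 2.4.6, pandas 2.3.3 and scipy 1.17.1 were used, with matplotlib 3.10.9 for plots.

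The members and lists were chosen with earlier results of these data known. Named targets are Lkb1, the other 3 signalling and metabolism targets and the 3 nearest to Lkb1 by root mean square difference. Lkb1 was matched to Stk11 through a RefSeq synonym. Alternatives were other minimum sizes, leaving out the largest tumours or those listed at 10 or more times their size elsewhere, IW mice alone, wider adjustment, leaving out each mouse, and, added after seeing the data, at least 10 reads. Within a genotype, the geometric mean was also run in place of the log-normal mean.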

Additional observations from a re-analysis of the deposited data

Results flagged for a closer look

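In KTC, replicate 1 stood apart at the top of the log-normal mean ratios, at 1.53 on the log2 scale, and replicate 2 at the top of the 70th percentile ratios, at 0.57. These were 2 of 15 measures examined for a sample far from the others, and chance gives about 1 in 20.

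The effect of the Lkb1 sgRNA differed between genotypes in 24 of 45 permutation tests of mouse labels, which covered 15 measures in each of 3 comparisons that share mice. Between KPTC and KTC, the log2 ratios of KPTC were lower by -0.60 for the log-normal mean, -1.22 for the arithmetic mean, and -0.34, -0.81 and -1.07 at the 80th, 90th and 95th percentile. The shares of at least 10000 and 100000 cells differed by -2.98 and -1.41 percentage points. On these measures 9.09% to 27.3% of the 11 targets, Lkb1 included, were called lower.

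Between KLTC and KTC, the log2 ratios of KLTC were lower by -1.27 for the log-normal mean, -2.16 for the arithmetic mean, and -1.30, -2.11 and -3.14 at the 90th, 95th and 99th percentile. Tumour numbers from 10000 and 100000 cells differed by -0.97 and -2.46 on the log2 scale, and the shares of these sizes by -6.33 and -3.17 points. Here too, 9.09% to 27.3% of the 11 targets were called lower on these measures.

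Between KLTC and KPTC, the log2 ratios of KLTC were lower by -0.67 for the log-normal mean, -0.94 for the arithmetic mean, and -1.03 and -2.21 at the 95th and 99th percentile. Tumour numbers differed by 0.14 for all sizes, -0.63 from 10000 and -1.64 from 100000 cells, and the share from 10000 cells by -3.34 points. On these measures 18.2% to 54.5% of the 11 targets were called in the same direction as Lkb1. The arithmetic mean difference was called in 17 of the 25 fits that left out 1 mouse (-1.10 to -0.82), and the share from 10000 cells in 8 of 25 (-3.84 to -2.90 points). The latter was also lost without tumours listed at 10 or more times their size elsewhere (-2.75 points). The KPTC difference from KTC in the share from 10000 cells was lost with at least 10 reads (-2.05) and from 5000 cells (-3.36).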

How the results depend on the processing

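In KTC, the log-normal mean, the 95th percentile and the share of at least 100000 cells of Lkb1 tumours kept their direction and call under every alternative run and without any 1 mouse (log2 ratios of 0.32 to 1.65 and 1.63 to 2.56, and 2.11 to 13.3 points). The log-normal mean in KPTC (0.13 to 0.88) and the log-normal mean, the 95th percentile and the number from 100000 cells in KLTC against KTC did so too (-1.90 to -1.16, -3.00 to -1.88 and -2.80 to -2.30). The log-normal mean ranges within KTC and within KPTC include the geometric mean, a different statistic that leaves out the variance of log size.

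In IW mice alone, 18 results lost their call, among them KPTC at the 95th percentile (0.72) and the share from 100000 cells (0.96 points), KPTC against KTC at the 95th percentile (-1.30), KLTC against KPTC in log-normal mean (-0.48) and 95th percentile (-1.003), and KPTC Lkb1 against KLTC inert tumours in log-normal mean (-0.77). The IW tests rest on 7 or 8 mice of a genotype, so a lost call alone does not show a smaller effect. The number in KLTC against KTC was gained (0.20). Uncalled values changed sign for KLTC at the 60th (0.071), 80th (0.029) and 90th (0.014) percentile and in the share from 10000 cells (0.039), for KLTC against KPTC at the 60th percentile (0.029), and for KTC Lkb1 against KLTC inert tumours at the 95th (0.15).

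With at least 10 reads, 11 results lost their call, among them KPTC against KTC in log-normal mean (-0.57) and share from 100000 cells (-0.98), number in KLTC against KPTC (0.068) and KPTC Lkb1 against KLTC inert tumours (-1.45), and 8 gained one, among them KLTC against KPTC in that share (-4.08). With minima of 1000, 1500 and 5000 cells, the number in KLTC against KPTC was 0.11, 0.019 and -0.33, without a call. Against KTC it was -0.092 from 1500 and -0.63 from 5000 cells. From 1000 cells, KTC Lkb1 against KLTC inert tumours was gained (-1.28). From 5000 cells, 14 results lost their call: KPTC against KTC did not pass in log-normal mean (-0.74), 95th percentile (-0.81) or share from 100000 cells (-6.55), nor KLTC against KPTC at the 95th (-1.28), and KLTC was positive at the 50th (0.11) and 60th percentile (0.0012).

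Without tumours listed at 10 or more times their size elsewhere, the 4 calls lost were KLTC against KTC in the share from 100000 cells (-3.18) and KLTC against KPTC in log-normal mean (-0.53), number (0.070) and share from 10000 cells (-2.75), KTC Lkb1 against KLTC inert tumours was gained in log-normal mean (-2.32) and 95th percentile (-1.82), and KPTC at the 50th percentile changed sign (-0.017). Without the largest tumours, the arithmetic mean in KPTC was gained (0.65). The causes were not tested.

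Leaving out each mouse gave -2.15 to -1.45 points for KLTC against KPTC in the share from 100000 cells (called without KLTC replicates 5 or 10), 0.11 to 0.15 for number in KLTC against KTC (called without KTC replicate 3), 0.43 to 0.72 for the arithmetic mean in KPTC (called without KPTC replicate 7), -0.029 to 0.012 for number in KPTC against KTC, -1.22 to -0.84 for KPTC against KTC at the 95th percentile, -1.47 to -1.03 for KTC Lkb1 against KLTC inert tumours (called without KLTC replicates 1, 3 or 6) and -0.0031 to 0.060 points for the share from 1000000 cells in KPTC. The labels give no replicate numbers that would pair mice across genotypes. Depth limits tumours of few reads most: a median of 48.4% of Lkb1 tumours in KPTC mice had under 10 reads.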

Other observations

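Barcodes of inert vectors were shared between mice more often than those of Lkb1: 23.6% of distinct inert barcodes were listed in 2 or more pool mice, against 13.3% of the 20659 distinct Lkb1 barcodes (2747). The 2 shares are not like for like, since inert entries were more numerous (91281 against 26658) and may pool several vectors under 1 label. Tumours of 1 mouse whose barcodes have the same number of G and C bases lay on 1 grid of reads in 337 of 337 such classes for Lkb1, and in 0 of 400 for inert tumours, where a class held a median of 3 grids.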
